A study of Brachypodium distachyon with 6 samples.

Results

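The phenylalanine ammonia-lyase family of Brachypodium distachyon (BdPAL1 to BdPAL8) was followed in whole roots of the inbred line Bd21 given either nitrate or ammonium as the exclusive nitrogen source. Its 8 genes were taken from a list of locus identifiers that describes them as phenylalanine and tyrosine ammonia-lyases, by a rule that uses no count, and all 8 were found among the 29627 features of the count table. Each of the 6 libraries held RNA from 1 pool of 12 Bd21 seedlings, which were moved to hydroponics at 7 days of age and then grown for 19 days at 2.5 mM nitrogen. The 3 nitrate pools received 1.25 mM calcium nitrate and the 3 ammonium pools 1.25 mM ammonium sulfate. These salts differ in calcium and sulfate as well as in the nitrogen form. Whether other salts of the solution balanced this is not stated here. All plants were of the genotype Bd21, and no pool was grown without nitrogen or with both forms. A rise caused by one form can therefore not be told apart from a fall caused by the other. The labels do not say that pools of 1 treatment came from separate tanks. If they shared a tank, tank and nitrogen form cannot be told apart, and the p-values hold no variation between tanks. The p-values speak for the variation among pools, part of which may be technical.

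Phenylalanine ammonia-lyase removes the amino group of phenylalanine and releases it as ammonium, leaving cinnamate. This is the entry step of the phenylpropanoid pathway, which leads to lignin, to the hydroxycinnamates of grass cell walls and to flavonoids. Grasses also have enzymes of this family that accept tyrosine and give p-coumarate directly, bypassing the next hydroxylation step. The ammonium set free is taken up again by glutamine synthetase, so the step links the use of carbon for walls with the turnover of nitrogen in the same cell. The tables used here do not pair the family's gene numbers, or the preference for phenylalanine or tyrosine, with single loci, so the genes are called by their locus identifiers. By the naming convention of this species, the digit before the letter g is the chromosome and the number after it the order of loci. A tandem group of 4 genes (BRADI_3g49250v3 to BRADI_3g49280v3), a pair (BRADI_3g47110v3 and BRADI_3g47120v3) and a single gene (BRADI_3g48840v3) are thus placed on chromosome 3, and BRADI_5g15830v3 on chromosome 5.

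Library totals ran from 22470936 to 29547877 counts. The labelled tissue could not be checked against root or leaf markers, since 0 of the 29627 identifiers matched the gene table used for names. All 8 genes passed the filter on low counts, and none had a count of 0 in any library. Levels are given as CPM (counts of a gene per 1000000 counts of its library) with library sizes scaled by the TMM method, which corrects for differences in the make-up of the libraries. They are not divided by gene length, so levels are compared between treatments for each gene and not between genes.

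Roots fed ammonium held less RNA of 3 of the 8 ammonia-lyase genes than roots fed nitrate, and these were the 3 with the most counts. Relative to nitrate, the change was -35.6% for BRADI_3g49250v3, -29.5% for BRADI_3g49260v3 and -37.4% for BRADI_5g15830v3. No gene of the family was called higher, and the other 5 missed the threshold. A call required a p under 0.05 in the quasi-likelihood test of edgeR after Benjamini-Hochberg adjustment over all 23694 tested features. Changes were common in these roots: 41.4% of all tested features were called, 22.2% as lower and 19.2% as higher under ammonium. A count of 3 in 8 is close to the share of all features that were called, so the number of responding genes does not set the family apart. The libraries of both treatments did not overlap in CPM for the same 3 genes, as for 54.4% of all tested features (27.8% with ammonium lower). No gene of the family was both called and changed by more than 2-fold, as 13.0% of all tested features were. The median log2 fold change of the 8 genes was -0.32, against 0.0037 over all tested features. Whole roots were sampled, so fewer cells that express these genes and less RNA per cell cannot be told apart.

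**Figure D1:**
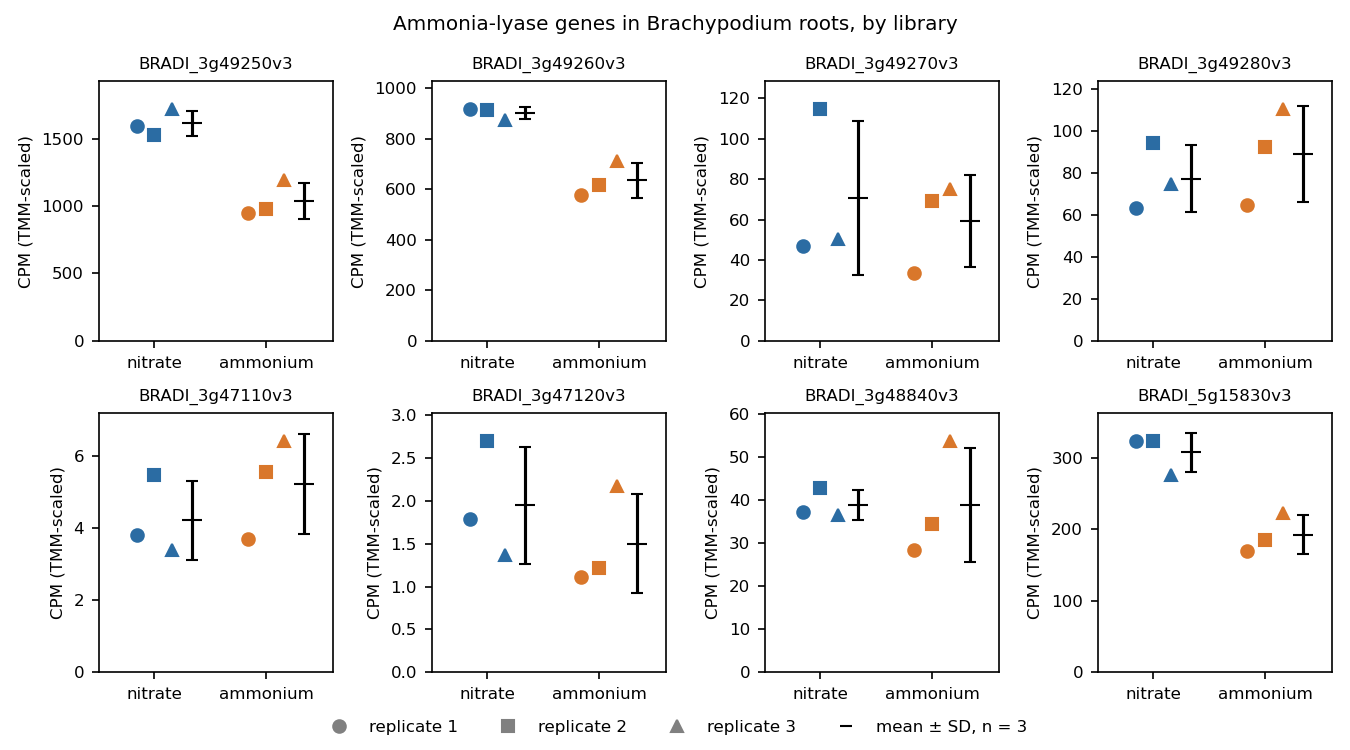
CPM (TMM-scaled, linear axes that start at 0) of the 8 ammonia-lyase genes in each nitrate (blue) and ammonium (orange) library, with symbols for replicate numbers and the mean ± SD (n = 3) in black. The treatments do not overlap for BRADI_3g49250v3, BRADI_3g49260v3 and BRADI_5g15830v3, and they overlap for the other 5 genes.

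The first gene of the tandem group, BRADI_3g49250v3, had the highest counts of the family, with 27202 to 45528 counts per library. It stood at 1591, 1530 and 1717 CPM in nitrate replicates 1 to 3 and at 950, 976 and 1190 CPM in ammonium replicates 1 to 3. Every nitrate library lay above every ammonium library, and ammonium replicate 3 lay nearest to nitrate. The mean was 1613 ± 95.6 CPM under nitrate and 1039 ± 132 CPM under ammonium (SD, n = 3 each), a log2 fold change of -0.63 (SE 0.11, edgeR adjusted p = 0.0024). It ranked as number 34 of all tested features by mean CPM, a rank that also depends on gene length.

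Its neighbour BRADI_3g49260v3 behaved alike. It stood at 917, 916 and 874 CPM in the nitrate libraries and at 579, 618 and 712 CPM in the ammonium libraries. The nitrate libraries lay close together and all above the ammonium libraries, of which replicate 3 was again the highest. The means were 903 ± 24.6 and 636 ± 68.4 CPM (SD, n = 3 each), a log2 fold change of -0.50 (SE 0.10, edgeR adjusted p = 0.0040). The log2 ratio of the counts of BRADI_3g49250v3 to those of BRADI_3g49260v3 was 0.84 ± 0.12 under nitrate and 0.71 ± 0.04 under ammonium (SD, n = 3 each). These ratios overlapped between the treatments, and a difference in response between both genes was not detected (two-sided exact permutation test, p = 0.2, adjusted p = 0.40 over the 4 pairs compared). With 3 libraries against 3, the smallest p this test can give is 0.1.

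The remaining genes of the tandem group were far more variable. BRADI_3g49270v3 stood at 47.1, 115 and 50.7 CPM in the nitrate libraries and at 33.5, 69.4 and 75.3 CPM in the ammonium libraries. Nitrate replicate 2 was more than double the other nitrate libraries, and the treatments overlapped. Its log2 fold change was -0.25 (SE 0.38, 95% interval -1.12 to 0.61, edgeR adjusted p = 0.62), an interval that holds the values of BRADI_3g49250v3 and BRADI_3g49260v3 as well as 0. Without nitrate replicate 2 the estimate was 0.28, on the other side of 0, and without ammonium replicate 1 it was 0.03. The spread within treatments, as an SD of log2 CPM, was 0.68 for this gene, above 97.8% of all tested features, whose median was 0.16.

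BRADI_3g49280v3, the last of the tandem group, stood at 63.1, 94.2 and 74.7 CPM in the nitrate libraries and at 64.9, 92.5 and 110 CPM in the ammonium libraries. The treatments overlapped almost fully, and the highest value was that of ammonium replicate 3. The log2 fold change was 0.21 (SE 0.20, 95% interval -0.25 to 0.66, edgeR adjusted p = 0.44). This interval does not reach the estimates of BRADI_3g49250v3 and BRADI_3g49260v3. Without ammonium replicate 3 the estimate of BRADI_3g49280v3 was 0.02, and without ammonium replicate 1 it was 0.39. The log2 ratio of BRADI_3g49270v3 to BRADI_3g49280v3 was -0.23 ± 0.45 under nitrate and -0.64 ± 0.28 under ammonium (SD, n = 3 each), with overlap (exact permutation test, p = 0.5, adjusted p = 0.67). That of BRADI_3g49260v3 to BRADI_3g49270v3 was 3.80 ± 0.70 and 3.50 ± 0.53 (exact permutation test, p = 0.7, adjusted p = 0.70).

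BRADI_5g15830v3, the gene on chromosome 5, was also lower under ammonium. It stood at 323, 324 and 276 CPM in the nitrate libraries and at 170, 185 and 223 CPM in the ammonium libraries. The treatments did not overlap, although nitrate replicate 3 and ammonium replicate 3 came nearer to each other than the rest. The means were 308 ± 27.3 and 193 ± 27.0 CPM (SD, n = 3 each), a log2 fold change of -0.68 (SE 0.12, edgeR adjusted p = 0.0021). It was the lowest fold change of the family, and 14.0% of all tested features had a lower one.

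BRADI_3g48840v3, the single gene on chromosome 3, had nearly the same mean under both treatments. Its ammonium libraries were spread more widely, a difference that was not tested. It stood at 37.3, 42.9 and 36.6 CPM in the nitrate libraries and at 28.4, 34.4 and 53.8 CPM in the ammonium libraries. The nitrate libraries lay within the range of the ammonium libraries. The means were 38.9 ± 3.47 and 38.9 ± 13.3 CPM (SD, n = 3 each), a log2 fold change of -0.0029 (SE 0.21, 95% interval -0.47 to 0.47, edgeR adjusted p = 0.99). The estimate rests on ammonium replicate 3, without which it was -0.32 (edgeR adjusted p = 0.058). Without ammonium replicate 1 it was 0.18.

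The pair on chromosome 3 had the lowest counts, 77 to 178 per library for BRADI_3g47110v3 and 31 to 70 for BRADI_3g47120v3. BRADI_3g47110v3 stood at 3.81, 5.47 and 3.39 CPM in the nitrate libraries and at 3.71, 5.56 and 6.43 CPM in the ammonium libraries. Its log2 fold change was 0.31 (SE 0.25, 95% interval -0.25 to 0.86, edgeR adjusted p = 0.35), and the treatments overlapped. BRADI_3g47120v3 stood at 1.78, 2.70 and 1.36 CPM in the nitrate libraries and at 1.11, 1.22 and 2.17 CPM in the ammonium libraries. Its log2 fold change was -0.39 (SE 0.33, 95% interval -1.14 to 0.37, edgeR adjusted p = 0.38), again with overlap. Single libraries moved both estimates: that of BRADI_3g47110v3 ran from 0.12 without ammonium replicate 3 to 0.54 without nitrate replicate 2, and that of BRADI_3g47120v3 from -0.75 to -0.08 without the same libraries. The log2 ratio of BRADI_3g47110v3 to BRADI_3g47120v3 was 1.10, 1.02 and 1.31 in the nitrate libraries and 1.74, 2.19 and 1.57 in the ammonium libraries. It was the only ratio of the 4 compared that did not overlap between treatments. The exact permutation test gave p = 0.1, the smallest it can give, and an adjusted p of 0.40. Only adjacent members were compared, so no such ratio was taken of BRADI_3g49280v3 with BRADI_3g49250v3 or BRADI_3g49260v3.

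**Figure D2:**
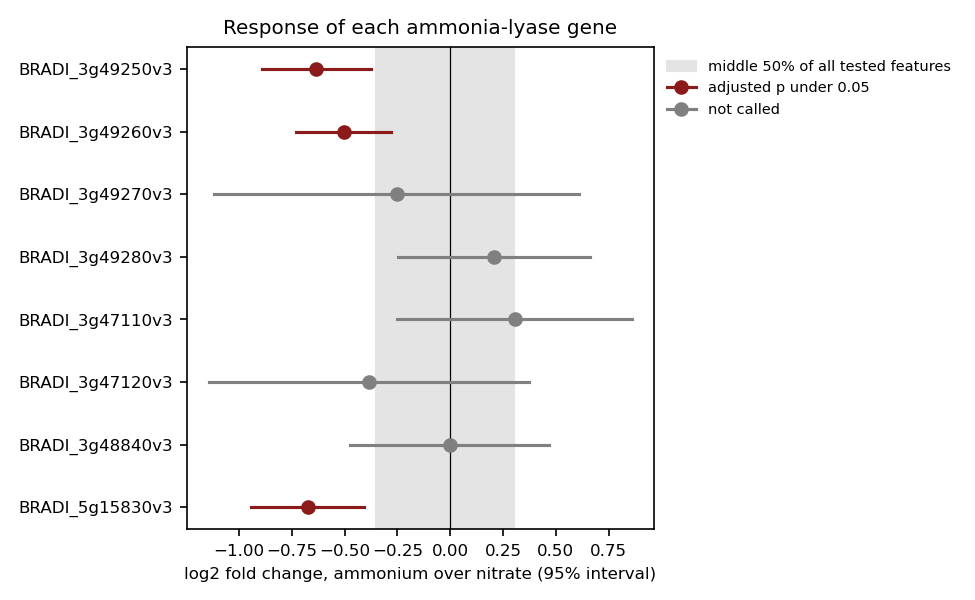
Log2 fold change (ammonium over nitrate) of each ammonia-lyase gene with its 95% interval, over a grey band that marks the middle 50% of all tested features. The 3 called genes (red) lie between -0.68 and -0.50, and the intervals of the other 5 (grey) include 0.

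The 5 genes without a call were also the 5 with fewer counts, and their fold changes had an SE of 0.20 to 0.38, against 0.10 to 0.12 for the 3 called genes. The SD of log2 CPM within treatments was 0.11 to 0.17 for the called genes and 0.34 to 0.68 for the others. A change of the size seen in the called genes therefore remains within the intervals of BRADI_3g49270v3 and BRADI_3g47120v3. The intervals of BRADI_3g49280v3, BRADI_3g47110v3 and BRADI_3g48840v3 end at -0.25, -0.25 and -0.47, above the estimates of all 3 called genes. Such intervals are no test of a difference between genes.

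Summed over the 8 genes, ammonia-lyase RNA stood at 2985, 3030 and 3034 CPM in the nitrate libraries and at 1830, 1981 and 2373 CPM in the ammonium libraries. The treatments did not overlap, and the ammonium libraries were spread more widely than the nitrate libraries. The means were 3016 ± 27.5 and 2062 ± 280.0 CPM (SD, n = 3 each), so that the ammonium mean was 68.4% of the nitrate mean. This sum holds assigned reads whichever of 2 similar copies they were assigned to, and no test was made on it. The tandem group alone gave 2663 ± 49.6 CPM under nitrate and 1823 ± 238 CPM under ammonium, 68.5% of the nitrate mean. Within it, BRADI_3g49250v3 and BRADI_3g49260v3 together reached 66.6% of their nitrate mean, whereas BRADI_3g49270v3 and BRADI_3g49280v3 together stood at 148 ± 53.1 CPM under nitrate and 149 ± 45.0 CPM under ammonium. How the authors' counting treated reads that fit several copies is not given in the sources used here, so the division of reads among copies of high similarity is uncertain, and values of single tandem genes carry that uncertainty.

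Shares of the summed counts need no scaling between libraries, and the 3 genes with the most counts held similar shares under both treatments. BRADI_3g49250v3 held 53.5% ± 3.06 of the counts under nitrate and 50.4% ± 1.33 under ammonium (SD, n = 3 each), and BRADI_3g49260v3 held a mean of 29.9% under nitrate and 30.9% ± 0.838 under ammonium. BRADI_5g15830v3 held 10.2% ± 0.959 and 9.34% ± 0.0413 (SD, n = 3 each). These shares overlapped between treatments. BRADI_3g49280v3 held 2.11%, 3.11% and 2.46% in the nitrate libraries and 3.55%, 4.67% and 4.65% in the ammonium libraries, without overlap. The share of BRADI_3g48840v3 also did not overlap, at 1.29% ± 0.111 against 1.85% ± 0.371, nor did that of BRADI_3g47110v3, at 0.140% ± 0.0361 against 0.251% ± 0.0426. Each of these 3 differences gave p = 0.1 in an exact permutation test (two-sided), which cannot go lower here, and an adjusted p of 0.27 over the 8 genes. None of the 3 was called higher in its own level, and the summed counts that the shares refer to were lower under ammonium.

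**Figure D3:**
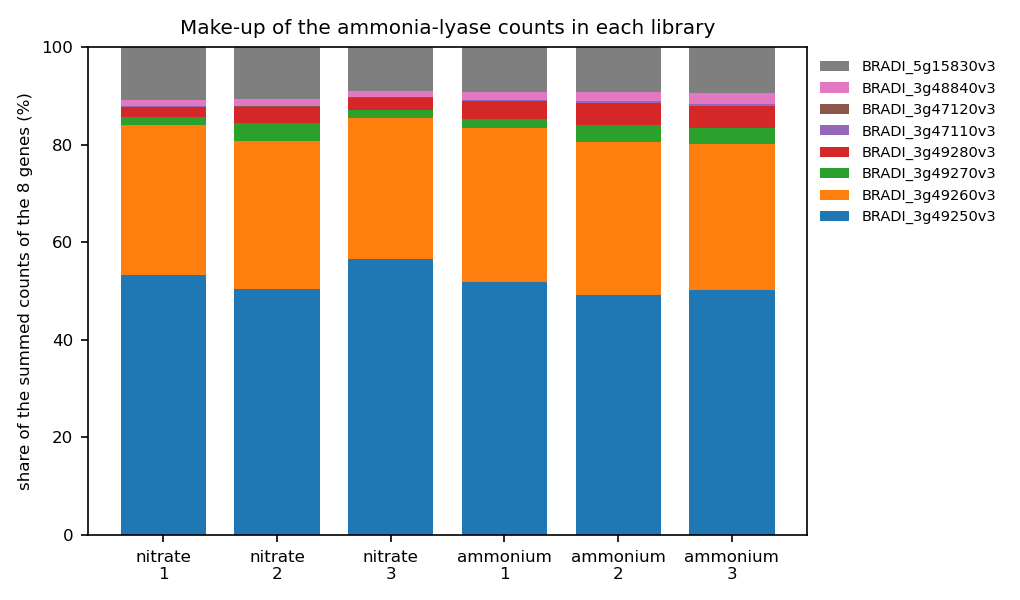
Share (percent) of each gene in the summed counts of the 8 ammonia-lyase genes, 1 bar per library. BRADI_3g49250v3 and BRADI_3g49260v3 together held a mean of 83.4% of the counts under nitrate and 81.4% under ammonium, and the band of BRADI_3g49280v3 is wider in every ammonium library than in any nitrate library.

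Many genes of the family shared the order of the libraries within a treatment, which is a description with no test. In ammonium roots, replicate 3 was the highest and replicate 1 the lowest library for 8 of the 8 genes, an arrangement found for 20.4% of all tested features. Replicate 3 also stood apart beyond the family. Over the features of the count table it differed more from ammonium replicates 1 and 2 than these differed from each other. In nitrate roots, replicate 2 was the highest library for 6 of the 8 genes, as for 31.5% of all tested features. The exceptions were BRADI_3g49250v3, highest in nitrate replicate 3, and BRADI_3g49260v3, highest in nitrate replicate 1. For BRADI_5g15830v3, nitrate replicate 2 was only just above replicate 1 (323.8 against 323.0 CPM). The nitrate arrangement was thus not clear in the 3 called genes. Ammonium replicate 3 lay above its group mean by 0.17 to 0.57 on the log2 scale. For the 3 called genes this places it nearer to the nitrate libraries, and without it their log2 fold changes were -0.75, -0.60 and -0.80 (BRADI_3g49250v3, BRADI_3g49260v3 and BRADI_5g15830v3). For BRADI_3g49280v3, BRADI_3g48840v3 and BRADI_3g47110v3 it places the same library above all nitrate libraries. The part of this library in the results other than by leaving it out was not tested.

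**Figure D4:**
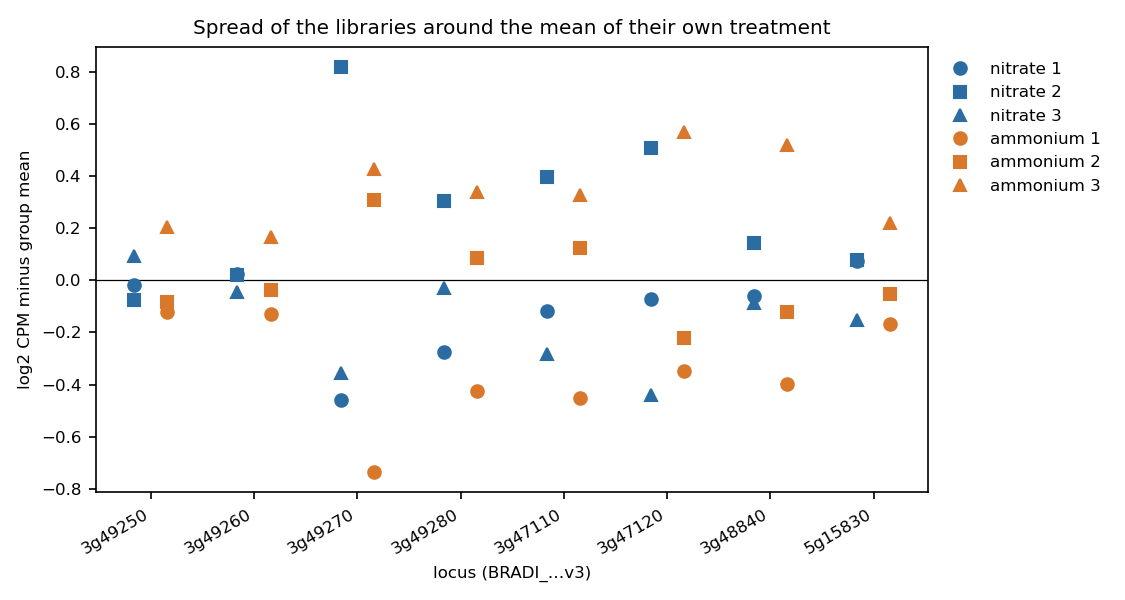
Deviation of each library from the mean of its own treatment (log2 CPM, y axis) for the 8 ammonia-lyase genes (x axis), with nitrate in blue, ammonium in orange and a symbol for each replicate number. The orange triangles (ammonium replicate 3) lie above 0 and the orange circles (ammonium replicate 1) below 0 for all 8 genes, and BRADI_3g49270v3 has the widest spread.

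Loci beside the ammonia-lyase genes in the order of locus numbers were read from the same fit, as the 5 tested loci on each side of each place. Of these 40 neighbours, 6 were higher, 11 were lower and 23 were not called, close to the shares over all tested features (19.2% higher and 22.2% lower). Around the tandem group 4 of 10 neighbours were lower and 1 was higher, with a median log2 fold change of -0.40, and a tested locus numbered between BRADI_3g49250v3 and BRADI_3g49260v3 did not pass the threshold (log2 fold change -0.64, SE 0.26, edgeR adjusted p = 0.076). Around BRADI_5g15830v3, 3 of 10 were lower and 1 was higher. Around the pair, whose own genes were not called, 4 of 10 were lower and 2 higher, and around BRADI_3g48840v3 none was lower and 2 of 10 were higher.

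**Figure D5:**
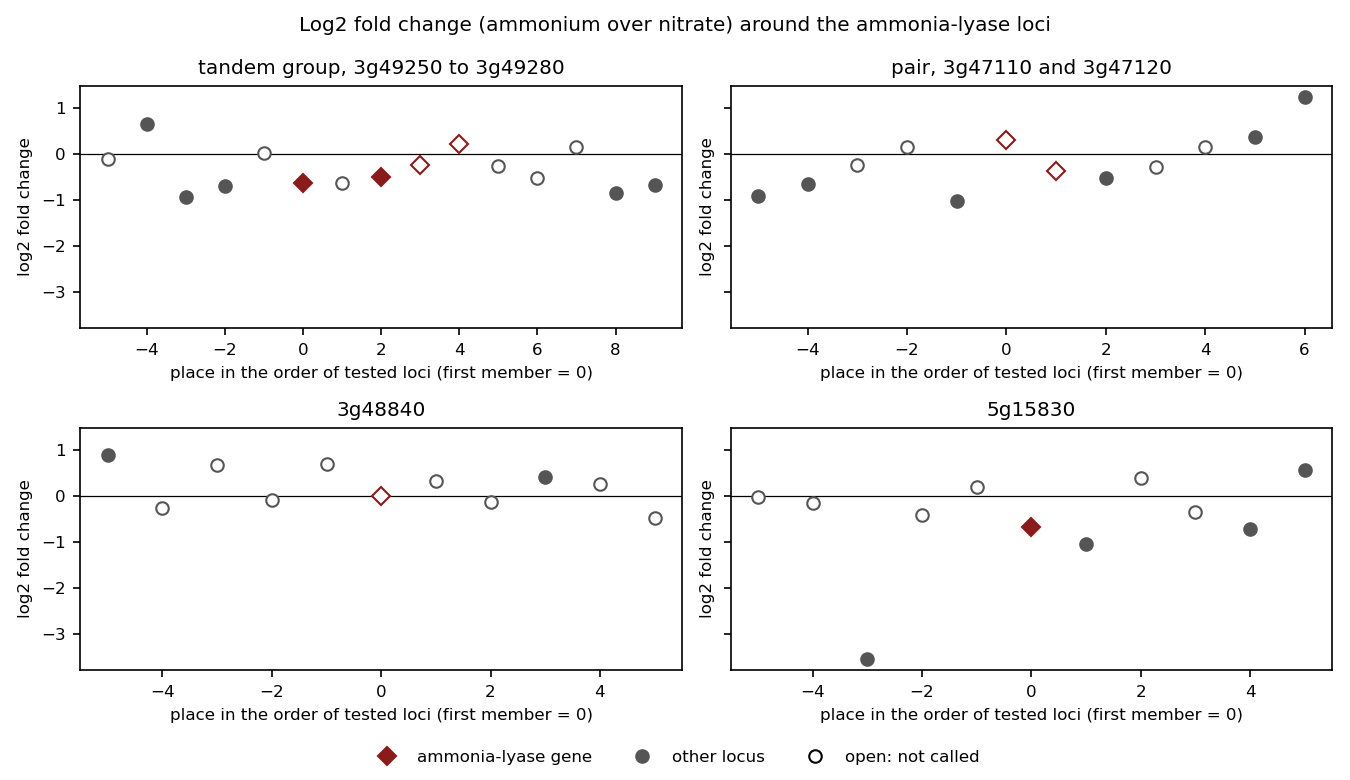
Log2 fold change (ammonium over nitrate, y axis) of ammonia-lyase genes (red diamonds) and of the 5 tested loci on each side (grey circles), by place in the order of loci, with open symbols for loci that were not called. Lower neighbours, 4 of 10, stand around both the tandem group and the pair, while the genes of the pair themselves are open.

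The features whose course over the 6 libraries was most like that of the summed ammonia-lyase counts were BRADI_2g45980v3 and BRADI_2g58460v3. Likeness was measured as the root mean square distance of centred log2 CPM over 6 libraries, among the 16397 tested features that averaged 5 CPM or more, and it was 0.032 and 0.034, against a median of 0.35. BRADI_2g45980v3 stood at 44.0, 47.4 and 46.5 CPM in the nitrate libraries and at 27.3, 29.1 and 35.5 CPM in the ammonium libraries. BRADI_2g58460v3 stood at 74.2, 76.2 and 73.9 CPM in the nitrate libraries and at 45.7, 47.3 and 61.0 CPM in the ammonium libraries. Like the sum they were chosen to match, both had narrow nitrate groups and an ammonium replicate 3 that lay nearest to nitrate. These libraries fall into 2 groups, so the measure reflects the treatment difference first and describes only these libraries.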

How the data were processed

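RNA sequencing of poly-A RNA from whole roots gave 6 libraries. The authors deposited their raw counts of reads per feature in 1 table. HISAT2 and HTSeq are named per the submitters' processing notes. Their versions and counting options, the build and the annotation are not given in the sources. The counts were tested with edgeR 4.0.16 in R 4.3.3 (filterByExpr with a minimum count of 10 and a minimum total of 15, TMM scaling, quasi-likelihood F test, treatment as the only term, all 6 libraries). The filter left 23694 features, and p-values were adjusted over all of them. The SE is the size of the log2 fold change over the root of F. The fit was tested on simulated data. Alternatives were other scalings and filters, DESeq2 1.42.0, limma-voom (limma 3.58.1), the replicate number as a block and leaving out each library. Libraries of 1 treatment differed by more than counting noise (chi-square per degree of freedom of at least 6.62), so none was counted as a duplicate. The value was 6.62 between ammonium replicates 1 and 2. Ammonium replicate 3 gave 27.4 against replicate 1 and 22.7 against replicate 2, the largest values within a treatment.

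Replicate numbers are shared by both treatments, and deviations from the group means correlated at 0.13, 0.21 and 0.11 between libraries numbered 1, 2 and 3. Deviations cancel out within a treatment, so positive values for shared numbers go with a negative relation, on average, between libraries of different numbers. Adding the number to the fit gave 10526 calls, against 9800 without it. Whether a shared number marks a pairing was not tested. The labels do not say that a shared number marks a batch, so the main fit had treatment as its only term. The genes named are the 8 members and the 2 features nearest to their sum. The rule for the members uses no count, but the members and lists were chosen with earlier results of these data known. Product-name lists for the rest of the phenylpropanoid pathway and for tissue markers could not be applied (0 of 15 pathway lists), since no identifier matched the RefSeq table of assembly Brachypodium_distachyon_v3.0; sequences were not used here.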

Additional observations from a re-analysis of the deposited data

How the results depend on the processing

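BRADI_3g49250v3, BRADI_3g49260v3 and BRADI_5g15830v3 were called lower under all 14 alternatives of scaling, filter, tool, replicate block and left-out library, with log2 fold changes of -0.75 to -0.57, -0.60 to -0.44 and -0.80 to -0.59 and adjusted p-values of at most 0.014, 0.022 and 0.012. The other 5 genes were called under none of them. Without 1 library, BRADI_3g49270v3 ranged from -0.48 to 0.28 and BRADI_3g48840v3 from -0.32 to 0.18. The replicate block left 3 members called, all lower, and 10526 of all features, against 9800 in the main fit. It changed no call of a member. Requiring more than 2-fold as well left 0 members and 3070 features. By construction such counts cannot rise under a stricter threshold. Leaving out 1 library gave 7103 to 9898 called features and 3 members each time. The log2 ratio of the summed CPM then ran from -0.66 to -0.47, both for all 8 genes and for the tandem group. Estimates near 0 changed sign: BRADI_3g48840v3 was 0.0012 with DESeq2 size factors in edgeR, 0.013 by library size only, 0.012 with upper quartile scaling, 0.0050 with no filter, 0.0048 with at least 1 CPM in 3 libraries and 0.0041 with DESeq2. It was 0.074 without nitrate replicate 2 and 0.18 and 0.070 without ammonium replicates 1 and 2. BRADI_3g49270v3 was 0.28 without nitrate replicate 2 and 0.03 without ammonium replicate 1. The pair had counts of 31 to 178 per library and an SE of 0.25 and 0.33. BRADI_3g49270v3 had more counts, 995 to 2974, and a larger SE of 0.38. The part of low counts in the precision was not tested.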
